A study of Homo sapiens with 9 samples.

Results

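The BEX and TCEAL genes are a family of short genes that lie together on human chromosome X. Their transcripts were followed on 9 Illumina bead arrays of HEK293 cells (a line derived from human embryonic kidney) after hairpins against AMOT or YAP1. The 10 genes described are BEX1, BEX2, BEX3, BEX4, BEX5, TCEAL3, TCEAL4, TCEAL7, TCEAL8 and TCEAL9, and every probe annotated to 1 of these symbols was taken. That gave 18 of the 47231 probes in the table, 8 for BEX genes and 10 for TCEAL genes. Gene names came only with a second deposited table of 20062 probes, so further probes of these genes would have stayed unnamed. Of the 18, 17 were among the 22375 probes bright enough to be tested. The members were chosen by their measured values, with the results of all 3 comparisons of these arrays known. Their differences between groups are therefore given as a description, and nothing is supported with them.

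Of the 3 groups, 1 carried a hairpin (shRNA) against AMOT, called AMOT-hairpin cells here, 1 carried a hairpin against YAP1, called YAP-hairpin cells, and 1 was wild-type HEK293 cells, called the control. Each group had 3 arrays, from 3 separate experiments per the series' design text. The sample titles call both hairpin groups knockouts, whereas the sources name hairpins and the design text knockdown. Cells with a control hairpin are not among the labelled groups, and the labels do not say how many hairpins or clones stood behind a group. Effects of a hairpin vector, of selection or of 1 clone therefore cannot be told apart from effects of lowering the target. AMOT encodes angiomotin, a junction scaffold that binds YAP, and YAP is a transcriptional coactivator that works through TEAD factors downstream of the Hippo kinases.

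BEX proteins (brain expressed, X-linked) and TCEAL proteins (named for their likeness to transcription elongation factor A, or TFIIS) are small, mostly acidic and largely unstructured proteins found in placental mammals. Most are abundant in brain and other neural tissue, and BEX3, BEX1 and BEX2 have been linked to neurotrophin receptor signalling, the cell cycle and neural transcription factor complexes. Several members, among them BEX1, BEX2 and TCEAL7, are known for silencing with promoter methylation in tumours. The reference table lists BEX2 as an older name of BEX1 and BEX1 as an older name of BEX2, BEX3 also as NGFRAP1 or NADE, and TCEAL9 as WBP5.

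Levels are given as log2 intensity after background correction, an added offset and quantile normalization, so a difference of 1 is a doubling, and differences of dim probes are held towards 0. Raw median signals lay between 175 and 208 on the 9 arrays. Probes with a detection p under 0.05 numbered 20827 to 22187 in AMOT-hairpin cells, 20866 to 21709 in YAP-hairpin cells and 19831 to 20397 in the control, so all 6 hairpin arrays lay above the controls; the part of this in the results was not tested. AMOT had levels of 9.94, 10.05 and 10.21 in AMOT-hairpin cells and 14.33, 14.32 and 14.21 in the control, a log2 difference of -4.22 (SE 0.10). YAP1 had 8.79, 8.79 and 8.93 in YAP-hairpin cells and 10.63, 10.71 and 10.64 in the control, a log2 difference of -1.82 (SE 0.10). AMOT was also called lower in YAP-hairpin cells than in the control, at -0.57 (SE 0.10). YAP1 stood at -0.08 (SE 0.10) in AMOT-hairpin cells, not called. Of the HEK293 markers, EYA1, SIX2, NEFL, NEFM and VIM had named probes, and all were detected on every array. Of their 7 probes, 3 were called higher and 1 lower in AMOT-hairpin cells, and 2 higher and 0 lower in YAP-hairpin cells, than in the control. That was 57.1% and 28.6% of these probes, beside 35.1% and 37.3% of all probes tested. VIM differed by 0.87 and 1.14 on its 2 probes in AMOT-hairpin cells (by 0.17, not called, and 0.35 in YAP-hairpin cells), EYA1 by 0.64 on 1 of 2 probes in AMOT-hairpin cells, and NEFM by -0.94 in AMOT-hairpin cells and 0.53 in YAP-hairpin cells; their part in the results was not tested. Of 10 markers of other cell types, only ALB and COL1A1 had a named probe, and both were detected on every array. ALB differed from the control by 0.72 (SE 0.18) in AMOT-hairpin cells and by -0.16 in YAP-hairpin cells, and its part in the results was not tested. In bulk RNA, fewer cells with a transcript and less of it per cell cannot be told apart.

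Of the 10 genes, 5 had a called probe in at least 1 comparison, BEX1, BEX2, BEX3, BEX5 and TCEAL7, and the other 5 had none. The share of all genes called on that basis was not worked out, so nothing is read from this count. For BEX1 and BEX3 the calls came from 1 probe of several. A probe is called here when its limma test, adjusted over all 22375 probes by the Benjamini-Hochberg method, passed 0.05. Against the control, AMOT-hairpin cells had 3 member probes higher, those of BEX2 and TCEAL7 and 1 of the 3 of BEX3, and 1 lower, 1 of the 2 of BEX1. The other 13 did not pass. Of all probes tested in that comparison, 35.1% were called, 17.6% higher and 17.5% lower. In YAP-hairpin cells BEX2 and TCEAL7 were called higher, BEX5 was called lower, and 14 member probes did not pass. There 37.3% of all probes were called, 18.5% higher and 18.7% lower. Between the knockdowns, BEX5 was called higher and TCEAL7 and 1 BEX1 probe were called lower in AMOT-hairpin cells than in YAP-hairpin cells, and 14 did not pass. For that comparison the share called over all probes was 17.4%, 8.61% higher and 8.84% lower.

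The called share of the members was 23.5%, 17.6% and 17.6% in these 3 comparisons, and nothing is read from it, because the members were chosen with those results known. Their median log2 difference was 0.14 in AMOT-hairpin cells and 0.13 in YAP-hairpin cells against the control, beside -0.02 and -0.01 over all probes. The comparisons with the control share the same 3 control arrays. Scaling each array to its median in place of quantile normalization changed the balance of calls over all probes. Calls higher in YAP-hairpin cells than in the control made up 60.5% of its calls under median scaling, against 49.7% under quantile normalization and 46.5% to 52.1% over the other alternatives. Between the knockdowns, calls higher in AMOT-hairpin cells made up 36.1% of the calls under median scaling, against 49.3% under quantile normalization and 47.2% to 51.9% over the other alternatives.

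**Figure D1:**
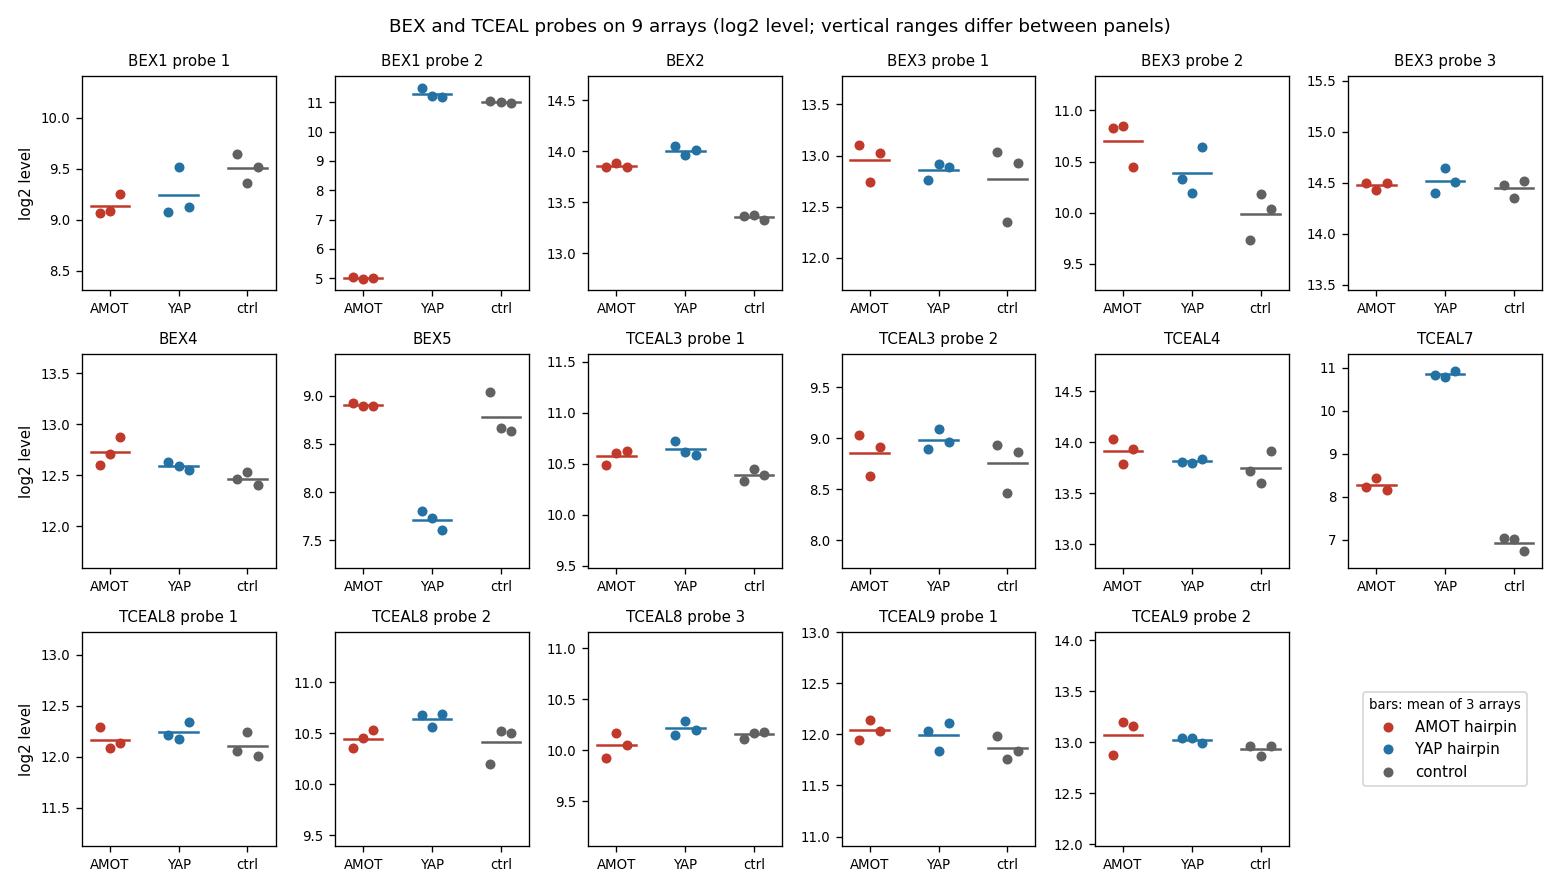
Log2 level (vertical axis, its range differing between panels) of each of the 17 tested probes on the 3 AMOT-hairpin, 3 YAP-hairpin and 3 control arrays; points are arrays and bars are group means. BEX1 probe 2 stands near 5 in AMOT-hairpin cells and near 11 elsewhere, TCEAL7 is highest in YAP-hairpin cells and lowest in the control, and BEX5 is lowest in YAP-hairpin cells.

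**Figure D2:**
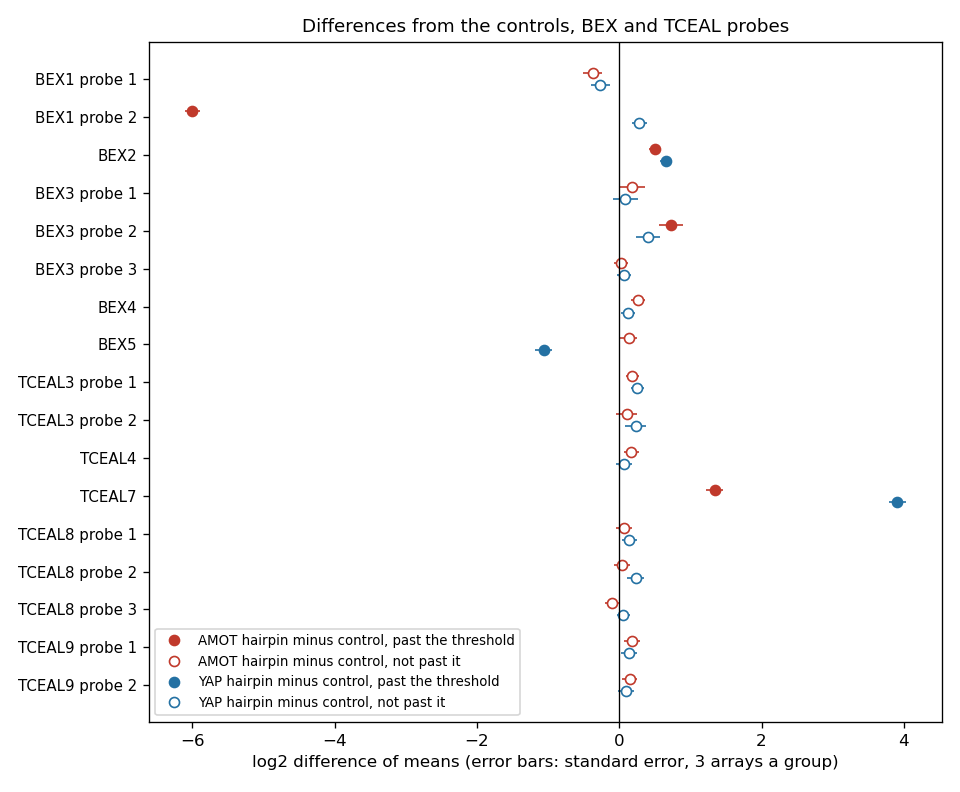
Log2 difference from the control (horizontal axis, with its standard error) of each tested probe, AMOT-hairpin in red and YAP-hairpin in blue; filled points passed the threshold. Outside BEX1 probe 2, BEX2, BEX3 probe 2, BEX5 and TCEAL7 every point is open and lies between -0.37 and 0.26; the BEX1 probe 2 point of AMOT-hairpin cells, at -6.0, is a fitted value against an undetected group.

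The start sites of these genes share a sequence feature that the choice of members did not use. RefSeq windows of the 250 bases before a start site (GRCh38.p14) were given for 9 of the 10 members, TCEAL7 being the one without. They covered 27305 genes in all with 35116 windows, since a gene can have several start sites. The palindrome CACGTG, an E-box core, stood in a window of 7 of the 9 members, BEX1, BEX2, BEX3, BEX4, TCEAL3, TCEAL4 and TCEAL8, against 7.73% of all genes. The longer palindrome TCACGTGA, which contains it, stood in 5 of the 9, against 1.04% of all genes. The stretches around CACGTG are shown on the gene's own strand, because they let the reader see how alike the starts of differently behaving members are; capitals mark CACGTG. TCEAL1, a family gene outside the members, is added for comparison. The stretches of BEX3, BEX4, TCEAL1 and TCEAL4 belong to a start site inside the gene's coordinates. The windows before the first base of BEX3, BEX4 and TCEAL1 hold no CACGTG, and none was given there for TCEAL4.
BEX1, chrX:103064205-103064234, minus strand: ggtgacgcacggccctCACGTGaccgggag
BEX3, chrX:103376475-103376504, plus strand: ggtgacgcgcggccctCACGTGacccagag
TCEAL1, chrX:103628903-103628932, plus strand: agtgacgcgcgtccctCACGTGaccaggag
TCEAL3, chrX:103607867-103607896, plus strand: cgggtgacgcggcgctCACGTGacccgccg
TCEAL8, chrX:103255173-103255202, minus strand: gtgatgacgcgactctCACGTGaccaggag
BEX2, chrX:103310996-103311025, minus strand: gcgatgacaacagccaCACGTGatcggcca
BEX4, chrX:103215073-103215102, plus strand: gcgatgacaacagcccCACGTGaccggcca
TCEAL4, chrX:103585489-103585514, plus strand: cctgggctgcggcattCACGTGatct

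In all of these but TCEAL4, TGAC stands shortly before CACGTG. This combination, TGAC, then 8 to 10 bases, then CACGTG, searched on both strands and chosen after the sequences were seen, was found in 6 of the 9 members and in all 4 other TCEAL genes with a window (TCEAL1, TCEAL2, TCEAL5 and TCEAL6). Over all genes it was found in 59, or 0.22%, of which 10 were BEX or TCEAL genes. Of the ARMCX and GPRASP genes, which lie beside this family on chromosome X, 3 of 8 with a window held it, ARMCX1, ARMCX4 and GPRASP3. The joint entry ARMCX5-GPRASP2, not counted among these 8, held it as well, and so did HNRNPH2, another neighbour within 2 Mb. Of the windows that hold CACGTG, those of BEX2 and BEX4 were 84.3% identical over their alignment. Those of BEX1 and BEX3 were 69.8% identical, whereas BEX1 and BEX2 shared 46.8%. GGGCGG, the core of a GC box, was found in 8 of 9 members and in 46.24% of all genes, and TATAAA in 0 of 9 and in 13.05%. GGAATG, the core that TEAD factors recognise, was found in BEX2 and BEX4 alone among the 9, against 14.29% of all genes. A match is a description of letters in a window and says nothing of binding.

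The whole windows of BEX1 and BEX2 are given because these 2 genes carry each other's older names and their probes moved in opposite directions in AMOT-hairpin cells. They read 5′ to 3′ up to the base before the gene's first base, with CACGTG in capitals, and hold 19 and 11 CG dinucleotides in BEX1 and BEX2, beside a median of 11 over all windows.
BEX1, chrX:103064172-103064421, minus strand: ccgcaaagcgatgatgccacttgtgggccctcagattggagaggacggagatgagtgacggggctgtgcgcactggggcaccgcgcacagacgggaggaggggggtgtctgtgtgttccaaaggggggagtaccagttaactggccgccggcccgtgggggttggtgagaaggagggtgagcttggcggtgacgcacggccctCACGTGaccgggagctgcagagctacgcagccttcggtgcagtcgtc
BEX2, chrX:103310991-103311240, minus strand: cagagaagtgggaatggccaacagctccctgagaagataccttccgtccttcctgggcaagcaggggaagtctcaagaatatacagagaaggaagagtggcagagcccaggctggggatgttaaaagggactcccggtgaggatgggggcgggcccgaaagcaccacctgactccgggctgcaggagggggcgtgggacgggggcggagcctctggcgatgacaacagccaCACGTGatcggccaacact

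BEX1, at 103062651 to 103064171 on chromosome X, is a small protein of neural tissue that has been linked to p75 neurotrophin receptor signalling and the cell cycle. It had 2 probes annotated to the same transcript, and they disagreed in AMOT-hairpin cells. Probe 2 had log2 levels of 5.03, 4.99 and 5.02 in AMOT-hairpin cells, 11.49, 11.22 and 11.16 in YAP-hairpin cells and 11.06, 11.01 and 10.98 in the control. The 3 AMOT-hairpin arrays stood together at the bottom, with raw signals of 144, 135 and 134 and detection p-values of 0.70 to 0.71, so the probe was undetected there on all 3. Against the level at which detection ended, it was at least 36.1-fold lower in AMOT-hairpin cells than in the control and at least 43.8-fold lower than in YAP-hairpin cells. Its fitted difference from the control was the lowest of all 22375 probes. In YAP-hairpin cells its 3 arrays lay above all 3 controls by a mean of 0.28 (SE 0.10), which did not pass the threshold.

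Probe 1 of BEX1 had levels of 9.07, 9.09 and 9.25 in AMOT-hairpin cells, 9.08, 9.52 and 9.13 in YAP-hairpin cells and 9.65, 9.37 and 9.51 in the control. It was detected on all 9 arrays. The AMOT-hairpin arrays lay below the controls by a mean of 0.37, whereas the YAP-hairpin arrays overlapped them, and neither difference passed the threshold (-0.37 and -0.27, SE 0.14 each). Leaving out 1 YAP-hairpin array, replicate 2, brought both differences past it. The gap between probe 1 and probe 2 on the same array was 4.04, 4.10 and 4.24 in AMOT-hairpin cells, -2.41, -1.71 and -2.03 in YAP-hairpin cells and -1.41, -1.64 and -1.46 in the control. A gap between probes also holds how well each binds, so only its shift is read. In AMOT-hairpin cells it shifted by 5.63 against the control, a fitted value with probe 2 at background, and in YAP-hairpin cells by -0.55, beside SDs of the gap of 0.10 among AMOT-hairpin, 0.35 among YAP-hairpin and 0.12 among control arrays. Probe sequences were not used here, so which part of the transcript each probe reads, and whether either also reads another BEX transcript, was not tested.

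**Figure D3:**
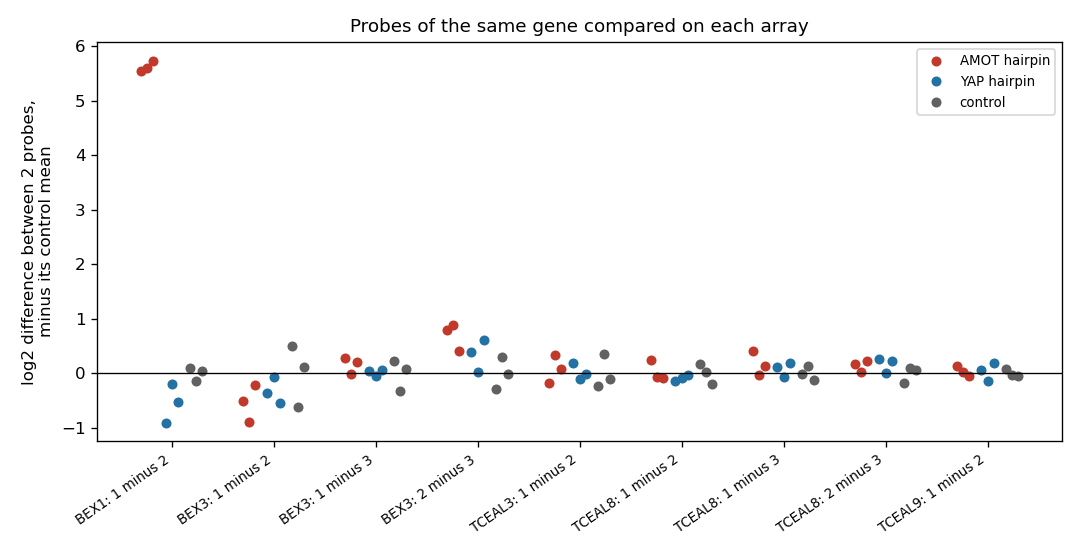
For each pair of tested probes of the same gene, the log2 difference between the probes on each array minus its mean over the control arrays (vertical axis); points are arrays, AMOT-hairpin left, YAP-hairpin middle, control right. The BEX1 pair shifts by 5.63 on average in AMOT-hairpin cells, while all other pairs stay within 1 of their control mean.

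The BEX1 disagreement was the largest among the probe pairs of the family. The next was between probes 2 and 3 of BEX3, whose differences from the control were 0.70 apart in AMOT-hairpin cells and 0.34 apart in YAP-hairpin cells. For the pairs of TCEAL3, TCEAL8 and TCEAL9 the differences from the control were between 0.02 and 0.17 apart in size. In the plot of probe pairs the AMOT-hairpin, YAP-hairpin and control arrays of these pairs overlap.

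BEX2, at 103309346 to 103310990, is reported as a partner of the transcription factor complex of LMO2 and NHLH2. Its 1 probe had levels of 13.85, 13.88 and 13.85 in AMOT-hairpin cells, 14.05, 13.96 and 14.01 in YAP-hairpin cells and 13.36, 13.37 and 13.33 in the control. All 6 hairpin arrays lay above all 3 controls, with SDs of 0.02 to 0.04 within the groups. BEX2 was 1.42-fold higher in AMOT-hairpin cells (log2 difference 0.51, SE 0.08) and 1.57-fold higher in YAP-hairpin cells (0.65, SE 0.08). The call in AMOT-hairpin cells was lost under median scaling, where the difference was 0.34, and that in YAP-hairpin cells was kept under all alternatives tried. The knockdowns differed by -0.15 (SE 0.08), which did not pass.

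BEX3, at 103376323 to 103378164, encodes the p75NTR-associated cell death executor, which binds the death domain of the p75 neurotrophin receptor. Its probe 2, annotated to another transcript than probes 1 and 3, had levels of 10.82, 10.84 and 10.44 in AMOT-hairpin cells, 10.32, 10.19 and 10.64 in YAP-hairpin cells and 9.73, 10.18 and 10.03 in the control. All hairpin arrays lay above all controls, and the probe was 1.65-fold higher in AMOT-hairpin cells (0.72, SE 0.17). The YAP-hairpin value, 0.40 with the same SE, did not pass. Probe 3 had levels of 14.50, 14.43 and 14.50 in AMOT-hairpin cells, 14.40, 14.64 and 14.51 in YAP-hairpin cells and 14.48, 14.35 and 14.52 in the control. Here the 3 groups overlapped, with differences from the control of 0.02 and 0.07 (SE 0.10). Probe 1 also overlapped among the groups, with differences of 0.18 and 0.08 (SE 0.18) and control levels of 13.03, 12.35 and 12.93.

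BEX4, at 103215092 to 103217246, encodes a protein reported to bind tubulin. Its levels were 12.60, 12.71 and 12.87 in AMOT-hairpin cells, 12.63, 12.59 and 12.55 in YAP-hairpin cells and 12.46, 12.53 and 12.40 in the control. Both knockdowns lay above the control on every array, by 0.26 and 0.13 on average (SE 0.10), but neither difference passed.

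BEX5, at 102153712 to 102155977, lies apart from the other members, at the low-coordinate end of the stretch. Little is described of its function. Its 1 probe had levels of 8.92, 8.90 and 8.90 in AMOT-hairpin cells, 7.80, 7.73 and 7.61 in YAP-hairpin cells and 9.03, 8.66 and 8.63 in the control. The YAP-hairpin arrays stood below all others, and the AMOT-hairpin and control arrays overlapped. BEX5 was 2.09-fold lower in YAP-hairpin cells than in the control (-1.06, SE 0.12), whereas its difference in AMOT-hairpin cells was 0.13 (SE 0.12). AMOT-hairpin cells exceeded YAP-hairpin cells by 1.19 (SE 0.12), and both called differences kept their call under all alternatives tried.

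TCEAL7, at 103330239 to 103332326, encodes a nuclear protein reported to restrain MYC and NF-kappa-B activity. Its 1 probe had levels of 8.24, 8.45 and 8.15 in AMOT-hairpin cells, 10.82, 10.79 and 10.92 in YAP-hairpin cells and 7.05, 7.03 and 6.74 in the control. The 3 groups did not overlap: YAP-hairpin cells stood highest, AMOT-hairpin cells between, and the control lowest, although detected on all 3 arrays. TCEAL7 was higher in YAP-hairpin cells than in the control by 3.91 (SE 0.12), the ninth highest difference of all 22375 probes. It was 2.53-fold higher in AMOT-hairpin cells (1.34, SE 0.12) and 5.93-fold lower in AMOT-hairpin cells than in YAP-hairpin cells (-2.57, SE 0.12). Since the control probe was dim, the sizes depend on the background correction and the offset. Over the alternatives the difference ran between 2.91 and 4.05 in YAP-hairpin cells and between 0.76 and 1.45 in AMOT-hairpin cells, and it was called in each.

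The pattern of TCEAL7 over the 9 arrays was compared with those of the 15261 tested probes that had a gene name, by the root mean square difference of log2 levels after each probe's mean was subtracted. The 3 closest were ACTL6B, a subunit of the neural BAF chromatin remodelling complex, at 0.251, SNAP25, a SNARE protein of synaptic vesicle fusion, at 0.291, and SCG3, a granin of secretory granules, at 0.292. ACTL6B had levels of 6.65, 6.12 and 6.47 in AMOT-hairpin cells, 9.33, 9.30 and 9.22 in YAP-hairpin cells and 5.31, 5.27 and 5.29 in the control. All 3 genes were undetected on every control array, so their changes are bounds. In YAP-hairpin cells they were at least 10.1-fold (ACTL6B), 10.5-fold (SNAP25) and 8.29-fold (SCG3) higher than in the control, and in AMOT-hairpin cells at least 1.38-fold, 1.16-fold and 1.75-fold higher.

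**Figure D4:**
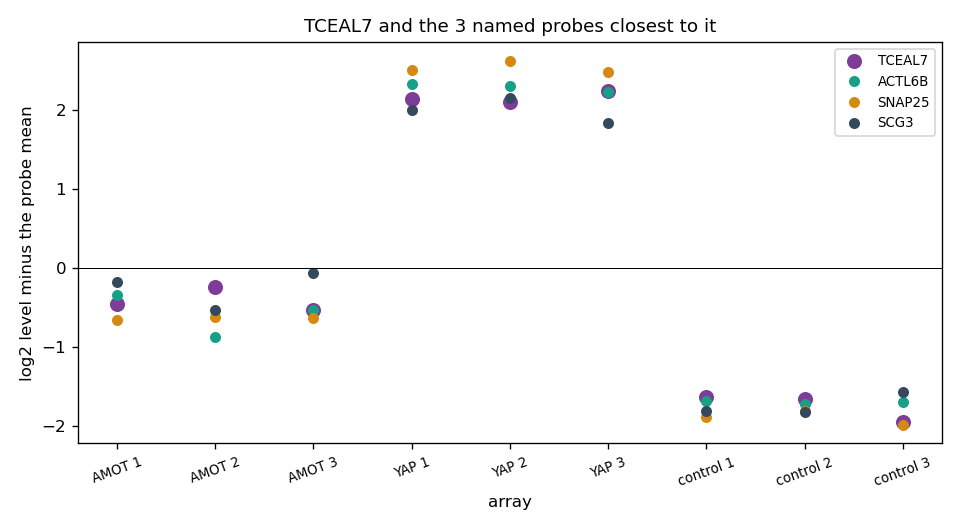
Log2 level minus the probe's own mean over the 9 arrays (vertical axis) for TCEAL7 and the 3 named probes whose pattern was closest to it; each point is 1 array. All 4 stand highest on the 3 YAP-hairpin arrays, a little under their mean on the AMOT-hairpin arrays and lowest on the control arrays.

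The remaining TCEAL members gave no call in any comparison. TCEAL3, TCEAL4 and TCEAL8 are TFIIS-like genes of little described function, and TCEAL9 encodes a protein named for binding WW domains. Over their 8 tested probes the differences from the control ran from -0.11 to 0.18 in AMOT-hairpin cells and from 0.06 to 0.25 in YAP-hairpin cells. The brightest TCEAL4 probe had levels of 14.03, 13.78 and 13.93 in AMOT-hairpin cells, 13.81, 13.79 and 13.83 in YAP-hairpin cells and 13.71, 13.60 and 13.92 in the control, all overlapping. Probe 1 of TCEAL3 had levels of 10.49, 10.60 and 10.63 in AMOT-hairpin cells, 10.72, 10.62 and 10.59 in YAP-hairpin cells and 10.33, 10.45 and 10.39 in the control. Its hairpin arrays all lay above the controls, by 0.18 and 0.25 on average (SE 0.09), without passing the threshold. The second TCEAL4 probe was not tested: it was detected on 1 of 9 arrays, of AMOT-hairpin cells, with levels from 5.28 to 6.19.

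For TCEAL8 the 3 probes differed from the control by 0.07, 0.04 and -0.11 in AMOT-hairpin cells and by 0.14, 0.23 and 0.06 in YAP-hairpin cells, with SEs of 0.10 to 0.11. TCEAL9 probes differed by 0.18 and 0.14 in AMOT-hairpin cells and by 0.13 and 0.09 in YAP-hairpin cells, with SEs of 0.11. A difference that misses the threshold does not show that the levels were equal. Across the whole family, 13 of the 14 probes that were not called in YAP-hairpin cells lay above the control, the exception being probe 1 of BEX1, and so did 13 under median scaling. In AMOT-hairpin cells 11 of 13 lay above it, the exceptions being that probe and probe 3 of TCEAL8, but under median scaling 6 of 13 did. Several of these probes belong to the same gene, and all share the same control arrays. The share above the control among all uncalled probes was not worked out, so nothing is read from these counts.

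TCEAL1, a nuclear phosphoprotein of the same family that was not among the members, was the only other TCEAL gene with a named probe. Its brighter probe had levels of 11.28, 10.98 and 11.22 in AMOT-hairpin cells, 10.98, 11.12 and 10.98 in YAP-hairpin cells and 10.37, 10.52 and 10.48 in the control. It was higher in AMOT-hairpin cells by 0.71 (SE 0.11, limma adjusted p = 0.000943) and in YAP-hairpin cells by 0.57 (SE 0.11, limma adjusted p = 0.00275). The other probe rose as well, by 0.59 and 0.52 (SE 0.15). TCEAL1 and BEX2 were thus both higher in each knockdown than in the control, and for neither gene did the difference between the knockdowns pass.

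The family was then set beside genes of the pathways it has been linked to, taken from lists chosen with earlier results of these arrays known. TFIIS itself and other transcription elongation factors, the factors TCEAL genes are named for, had 37 tested probes of 25 genes. In AMOT-hairpin cells 4 were higher and 11 lower than in the control, and in YAP-hairpin cells 5 were higher and 10 lower, 40.5% called in each case beside 35.1% and 37.3% over all probes. The median difference was -0.08 in AMOT-hairpin cells and -0.15 in YAP-hairpin cells, beside -0.02 and -0.01 over all probes. TCEA2, the tissue-restricted TFIIS, rose on 1 probe by 0.72 and 0.78 (SE 0.10), and on its other probe by 1.26 in AMOT-hairpin cells, with 0.25 in YAP-hairpin cells not passing. TCEA3 was undetected in the control and at least 1.17-fold and 1.20-fold higher in AMOT-hairpin and YAP-hairpin cells. Of the PAF1 elongation complex, CTR9 fell by 0.75 in AMOT-hairpin cells and 0.95 in YAP-hairpin cells on the probe that moved more, and 1 probe of LEO1 fell by 0.76 in AMOT-hairpin cells and 0.93 in YAP-hairpin cells. On its other probe LEO1 fell by 0.81 in YAP-hairpin cells and stood at -0.30 in AMOT-hairpin cells. AFF4, a scaffold of the super elongation complex, rose by 0.89 in YAP-hairpin cells and stood at 0.07 in AMOT-hairpin cells.

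TCEA1, the widely expressed TFIIS, rose on 1 of 3 probes, by 0.32 in AMOT-hairpin cells and 0.26 in YAP-hairpin cells. ELOC, a subunit of elongin, fell on both probes in AMOT-hairpin cells, by 0.76 and 0.37, and on the second of these in YAP-hairpin cells, by 0.41. The probes of its partner ELOB disagreed, 1 falling by 0.35 in AMOT-hairpin cells and the other rising by 0.39 in YAP-hairpin cells. Of the negative elongation factor NELF, NELFCD fell by 0.55 in AMOT-hairpin cells and 0.52 in YAP-hairpin cells, and NELFB fell on both probes in AMOT-hairpin cells, by 0.35 and 0.48, with -0.25 and -0.11 in YAP-hairpin cells not passing. SSRP1, of the histone chaperone FACT, fell by 0.34 in AMOT-hairpin cells and 0.37 in YAP-hairpin cells, and SUPT6H, another histone chaperone, fell by 0.69 in AMOT-hairpin cells and stood at -0.22 in YAP-hairpin cells. CDK9, the kinase of P-TEFb, fell by 0.45 in YAP-hairpin cells and its cyclin CCNT1 by 0.85 on 1 of 2 probes, and the elongation factor ELL2 fell by 0.34 there; none of these passed in AMOT-hairpin cells. Between the knockdowns, 5 probes of the list were called higher and 2 lower in AMOT-hairpin cells than in YAP-hairpin cells. That was 18.9% of the list, beside 17.4% of all probes. Higher were 1 probe each of CCNT1 by 1.07, TCEA2 by 1.01 and LEO1 by 0.51, 1 of 3 CCNT2 probes by 0.43, and ELL3 by 0.37. AFF4 and TCEANC2 were lower, at -0.82 and -0.74.

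Genes of p75 neurotrophin receptor signalling, in which BEX3 and BEX1 have been placed, had 12 tested probes of 9 genes, and NGFR, the receptor itself, had no named probe. Against the control, 4 probes were higher and 2 lower in AMOT-hairpin cells, and 4 higher and 4 lower in YAP-hairpin cells. That was 50% of the list in AMOT-hairpin cells and 66.7% in YAP-hairpin cells, beside 35.1% and 37.3% of all probes, with medians of 0.08 and 0.01 beside -0.02 and -0.01. MAGED1, which binds the receptor and takes part in cell death, fell on both probes, by 0.34 and 0.55 in AMOT-hairpin cells and by 0.88 and 1.12 in YAP-hairpin cells. ZNF274, a zinc finger protein placed in this list as a receptor-linked factor, rose on both probes, by 1.18 and 1.43 in AMOT-hairpin cells and by 0.69 and 0.79 in YAP-hairpin cells. BDNF, a neurotrophin, was undetected in the control and at least 1.27-fold and 1.22-fold higher in AMOT-hairpin and YAP-hairpin cells. Of the signalling proteins, the kinase IRAK1 rose by 0.33 in AMOT-hairpin cells, and in YAP-hairpin cells the kinase RIPK2 fell by 0.39, the ubiquitin ligase TRAF6 fell by 0.56 on 1 of 2 probes and PRDM4, a zinc finger protein, rose by 0.34.

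Of the LMO2 complex genes linked to BEX2, 6 probes of 5 genes were tested. Both knockdowns had 3 higher, those of LMO2, NHLH2 and TCF3, and LMO4 was lower on 1 of 2 probes in YAP-hairpin cells, by -0.90. That was 50% of the list in AMOT-hairpin cells and 66.7% in YAP-hairpin cells, beside 35.1% and 37.3% of all probes, with medians of 0.42 and 0.26 beside -0.02 and -0.01. LMO2, a bridging LIM protein, rose by 0.76 in AMOT-hairpin cells and 0.85 in YAP-hairpin cells (SE 0.16), with 2 of 3 control arrays detected. NHLH2, a neural helix-loop-helix factor also called NSCL2, rose by 0.71 in AMOT-hairpin cells and 1.39 in YAP-hairpin cells (SE 0.16). TCF3, which encodes the E proteins that pair with such factors, rose by 0.85 in AMOT-hairpin cells and 0.64 in YAP-hairpin cells.

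For DNA methylation genes, taken because family members are known for promoter methylation, 17 probes of 9 genes were tested. In AMOT-hairpin cells 3 were higher and 0 lower, and in YAP-hairpin cells 5 were higher and 3 lower. That was 17.6% of the list in AMOT-hairpin cells and 47.1% in YAP-hairpin cells, beside 35.1% and 37.3% of all probes, with medians of 0.10 and -0.07 beside -0.02 and -0.01. GADD45A, a stress-induced gene linked to demethylation, rose on both probes, by 0.47 and 0.54 in AMOT-hairpin cells and by 1.37 and 1.27 in YAP-hairpin cells. DNMT1, the maintenance methyltransferase, rose by 0.32 in YAP-hairpin cells and stood at 0.23 in AMOT-hairpin cells, which did not pass. UHRF1, its recruiter, fell by 0.36 in YAP-hairpin cells on its brighter probe, and the other was undetected there and at least 1.42-fold lower than in the control. DNMT3B, a de novo methyltransferase, fell by 0.30 on 1 of 3 probes in YAP-hairpin cells. TET1, which oxidises methylcytosine, rose by 0.33 on 1 of 3 probes in AMOT-hairpin cells. The methyl-CpG binding proteins MBD4 and MBD2 rose in YAP-hairpin cells, MBD4 by 0.56 and MBD2 by 0.77 on 1 of 2 probes, which was detected on 1 of 3 control arrays.

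The 10 members span 1.46 Mb of chromosome X, from 102153712 to 103609927 (GRCh38.p14). Within 2 Mb of that span, 28 other genes had 39 tested probes, of which 13 were higher and 5 lower in AMOT-hairpin cells, and 9 higher and 10 lower in YAP-hairpin cells, than in the control. The called share was 46.2% in AMOT-hairpin cells and 48.7% in YAP-hairpin cells. It was 41.4% in each for the 568 tested chromosome X probes outside the family, which include these 39. RPL36A, a protein of the large ribosomal subunit, differed most among the neighbours in both: it had 7.79, 7.95 and 7.95 in AMOT-hairpin cells, 7.95, 7.81 and 7.60 in YAP-hairpin cells and 9.54, 9.43 and 9.58 in the control. It fell by 1.62 in AMOT-hairpin cells and by 1.73 in YAP-hairpin cells (SE 0.11). Others moved in 1 knockdown: TMSB15A, a thymosin beta gene that binds actin, rose by 1.22 in AMOT-hairpin cells and stood at -0.14 in YAP-hairpin cells, and MORF4L2-AS1, an antisense RNA, stood 1.28 higher and at 0.18. ARMCX5 fell by 0.72 in AMOT-hairpin cells and by 1.48 in YAP-hairpin cells. SRPX2, detected in YAP-hairpin cells alone, was at least 1.19-fold higher there than in the control.

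**Figure D5:**
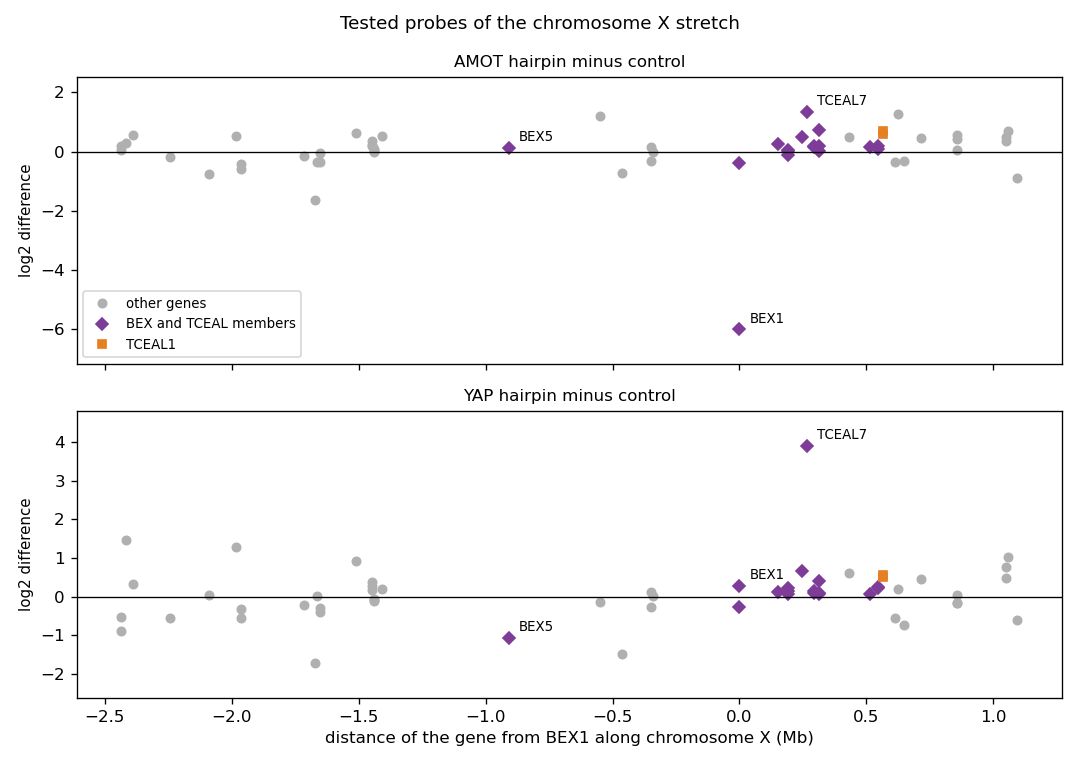
Log2 difference from the control (vertical axis; AMOT-hairpin cells above, YAP-hairpin cells beneath) of every tested probe of the members, of TCEAL1 and of genes within 2 Mb, by the distance of the gene's lower coordinate from that of BEX1 (horizontal axis, in Mb). The BEX1 probe at -6.0 in AMOT-hairpin cells and TCEAL7 at 3.91 in YAP-hairpin cells lie outside the range of the neighbours, -1.73 to 1.46.

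Along this stretch, members that behaved differently lay close together, as the plot by position shows: BEX2, TCEAL7, TCEAL9 and BEX3 lie in this order between 103309346 and 103378164, with differences in YAP-hairpin cells of 0.65 for BEX2, 3.91 for TCEAL7, at most 0.13 for TCEAL9 and at most 0.40 for BEX3. For the brightest probe of each member, the 3 closest profiles among the 15261 named probes were of genes on other chromosomes, apart from ARMCX6 on chromosome X, second closest to TCEAL4 at 0.0564 between SDHAF1 and ZC3H4. BEX5 was closest to ATP2B4, a plasma membrane calcium pump, at a root mean square difference of 0.126, RTL6 at 0.128 and TMPPE at 0.140. ATP2B4 had 9.42, 9.54 and 9.34 in AMOT-hairpin cells, 8.18, 8.10 and 8.05 in YAP-hairpin cells and 9.41, 9.19 and 9.40 in the control. The 3 closest, nearest first, were POMGNT2, HIKESHI and ZNF319 for BEX3, RPLP1, RBM23 and DET1 for BEX4, XPNPEP1, HADH and ODR4 for TCEAL3, DHX40, BIRC6 and USP13 for TCEAL8, and TRIR, TPR and PALB2 for TCEAL9, at 0.0476 to 0.0683. BEX2 was closest to BNIP3 at 0.0473, CCDC102A at 0.0476 and RPN1 at 0.0509. Probe 1 of BEX1 was closest to ZCCHC17, RBX1 and RAB5C, at 0.0707 to 0.0738. For probe 2 of BEX1, looked up after its values were seen, the closest was AMOT, also on chromosome X, at 1.10, then GALC at 1.32 and SULF1 at 1.88, none of them near in size. GALC, a lysosomal galactosylceramidase, had 5.94, 5.49 and 5.59 in AMOT-hairpin cells, 9.09, 9.13 and 9.25 in YAP-hairpin cells and 8.85, 9.0 and 8.95 in the control. Probes of many genes were searched, so a small difference is a description of these 9 arrays.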

How the data were processed

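Total RNA was labelled with biotin and hybridised to 9 Illumina bead arrays, 3 for each of 3 groups. The authors deposited, per the file headers, an intensity and a detection p-value for each of 47231 probes and array; these are linear, neither background-corrected nor normalized. A second deposited table holds 20062 of the probes as intensity values that the authors normalized by a method not given in the sources used here, and it served as an alternative. All columns matched a sample. Gene names came from a platform annotation of the probes of the second table, updated by gene number, so 7114 of the tested probes stayed unnamed.

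In R 4.3.3 with limma 3.58.1, signals were corrected with the normal-exponential model (neqc, offset 16), with negative controls inferred from the detection p-values, followed by quantile normalization and log2 transformation. Probes with a detection p under 0.05 on at least 3 arrays were tested (22375). A model with a mean for each group, 6 residual and 3.53 prior degrees of freedom, was fitted to all arrays, with Benjamini-Hochberg adjustment within each comparison and a threshold of 0.05. P-values rest on how much arrays within a group scatter, which may be technical; the number of arrays limits the precision. Undetected groups are given as bounds, which hold for this background correction and offset. The fit was tested on simulated data. Promoter windows were aligned with biopython 1.88.

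The members and lists were chosen with earlier results of these data known. Named were all member probes, the other TCEAL genes, list genes called in at least 1 comparison, the 3 neighbours with the largest called differences and the 3 closest profiles. Same-numbered arrays did not deviate together (correlations of -0.131 to 0.0986 over 9 pairs), so no pairing was used. Alternatives were median scaling, cyclic loess, no background correction, offset 50, no filter, a filter of detection p under 0.01 on all 9 arrays, the second table, replicate blocks and leaving out each array.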

Additional observations from a re-analysis of the deposited data

Results flagged for a closer look

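For 3 of the 17 tested probes of the family the difference between the 2 knockdowns passed limma's test of that difference, adjusted over all 22375 probes. Probe 2 of BEX1 had a log2 difference of -6.28 in AMOT-hairpin minus YAP-hairpin cells, a fitted value, since the probe was undetected in AMOT-hairpin cells. TCEAL7 stood at -2.57 and BEX5 at 1.19 in the same comparison, with all 3 arrays of a knockdown on 1 side of the other's. Of all probes 17.4% passed this test, and these 3 were chosen with that result known.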

How the results depend on the processing

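No member probe reversed a called difference under any alternative. BEX1 probe 2 was called lower in AMOT-hairpin cells in all 17 settings that kept it, with fitted differences from -6.03 to -3.96, and the filter on all 9 arrays removed it by construction. TCEAL7 and BEX5 kept their calls in all 18 settings. BEX2 in AMOT-hairpin cells lost its call under median scaling (0.34, limma adjusted p = 0.103), with adjusted p from 6.53e-05 to 0.103 over its settings; the cause was not tested. Member probes called in YAP-hairpin cells against the control numbered 6 without background correction and 6 on the authors' values, and 3 or 4 in every other setting. Calls over all probes rose there too, to 9109 of 22375 without background correction and 9097 of 20062 on the authors' values. The fit used above called 8338 of 22375. Probe 1 of BEX1 in AMOT-hairpin cells passed in 5 of 18 settings, BEX4 there in 3, and in YAP-hairpin cells probe 2 of BEX1 in 3, BEX3 probe 2 in 2 and TCEAL3 probe 1 in 4. Without YAP-hairpin replicate 2, probe 1 of BEX1 passed in both knockdowns, and without YAP-hairpin replicate 3, probe 2 of BEX1 passed in YAP-hairpin cells. Over all probes, calls between the knockdowns numbered 2390 under median scaling, against 3904 under quantile normalization, from 3020 to 4905 under the other alternatives that kept all arrays and from 2469 to 4052 when 1 array was left out; they were 2474 without AMOT-hairpin replicate 1, 2469 without YAP-hairpin replicate 1 and 2571 without YAP-hairpin replicate 2. With the replicate number as a fixed block, called probes were 7233 for AMOT-hairpin minus control, 7837 for YAP-hairpin minus control and 3304 between the knockdowns, and all member calls stayed the same. Signals near background limit BEX1 probe 2, TCEAL7 in the control and the untested TCEAL4 probe.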
